A study of Homo sapiens with 6 samples.

Results

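PANC-1 is an established human cell line from a pancreatic ductal adenocarcinoma, and the data described here are its messenger RNA after transfection with a control siRNA (siControl). They come from 3 of the 6 bead arrays of a study of NR4A1, an orphan nuclear receptor also called Nur77 or TR3, in pancreatic cancer cells; the 3 arrays were chosen by their column names, siControl replicates 1 to 3, and the other arrays, labelled siTR4A1, were not used. The labels do not say whether the 3 siControl samples came from separate cultures, so the spread given here may be technical. All 3 carry the same transfection, so no untransfected state was measured. With a single group there is no comparison between conditions and no test, and each value is a description.

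Ductal adenocarcinoma arises in the exocrine pancreas, where duct cells carry keratins, mucins and cell junction proteins, acinar cells make digestive enzymes, and islet cells make hormones. Carcinoma lines differ in how much of the duct programme they keep and in how much of a mesenchymal programme, a set of cytoskeletal and matrix genes of motile cells, they have acquired. A bead array reads each RNA through short probes, and a probe's brightness depends on its own sequence as well as on the amount of RNA. A gene's class below is therefore a class of probe signal, and the order of levels between genes is not an order of RNA amounts.

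The deposited signals are linear and not normalized. Each array had a narrow peak of dim probes, at a signal of 90.0 on siControl replicate 1, 86.4 on replicate 2 and 114 on replicate 3, which was taken as background. A probe was called detected above 103, 96.9 and 131 on these arrays, the point that 95% of the background stays under. Of 47230 probes, 38.5% were detected on replicate 1, 41.6% on replicate 2 and 43.3% on replicate 3. Replicate 3 was the brightest array, with a mean signal of 623 against 357 on replicate 1 and 332 on replicate 2, and the median abundant gene stood 37.6 times over background there, 22.7 times on replicate 1 and 21.5 times on replicate 2. Log2 levels below were brought to a common distribution over the 3 arrays, while signals are as deposited.

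**Figure D1:**
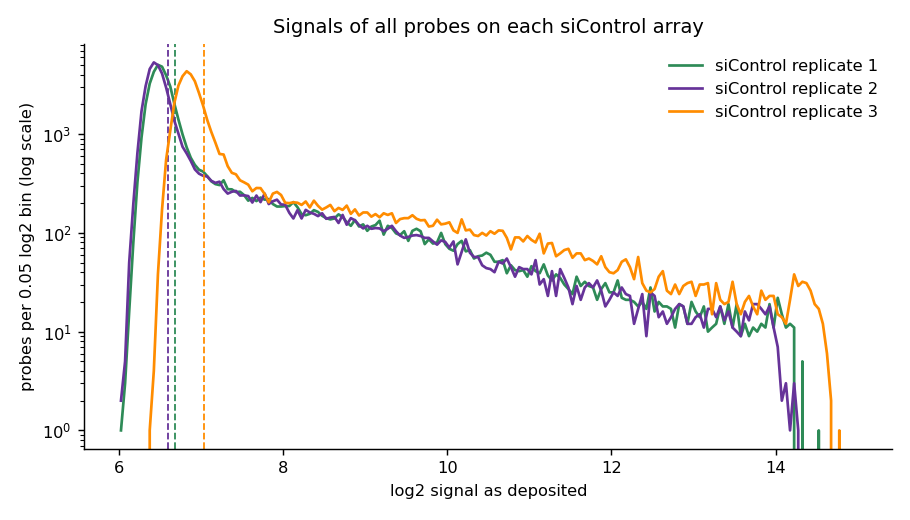
Number of probes per 0.05 log2 bin (vertical axis, log scale) against the log2 of the deposited signal (horizontal axis) for the 3 siControl arrays; dashed lines mark each array's detection point. Replicate 3 lies to the right of the other arrays, with its background at 114 and its detection point at 131.

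Through its brightest probe, each of 22970 named genes was put in a class. The abundant class holds 2124 genes (9.25%) that were in the top 10% of genes on every array. A further 8678 genes (37.8%) were detected on all 3 arrays below that level and are called intermediate, 3203 (13.9%) were detected on 1 or 2 arrays and are called borderline, and 8965 (39.0%) were detected on none and are called at background. In all, 10802 genes (47.0%) were detected on every array, and of the 18702 protein-coding genes 51.1% were. Counts of list and family members below are to be read beside these shares. Families hold protein-coding genes alone, so 51.1% is the closer share for them. The median log2 level was 11.29 in the abundant class, 7.87 in the intermediate class, 6.31 in the borderline class and 6.07 at background. Olfactory receptors, which sense odours in the nose, give a check of the detection point: of 371 such genes 2.96%, 5.66% and 5.93% were detected on replicates 1, 2 and 3, and 0.539%, or 2 genes, on all 3. Without replicate 1 the other arrays shared 8 and without replicate 2 they shared 4.

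The abundant class was led by genes of protein synthesis and of the cytoskeleton. Among the 62 genes that were in the 100 brightest on every array, 33 are protein-coding, 15 of them ribosomal protein genes, and 29 are pseudogenes, 20 of these named after ribosomal protein genes, 4 after the elongation factor gene EEF1A1 and 4 after the cyclophilin gene PPIA. EEF1A1, which brings aminoacyl-tRNA to the ribosome, had signals of 19362, 15672 and 24454 on replicates 1 to 3. All 3 arrays placed it among their brightest genes, at 14.26 ± 0.07 log2 (SD, n = 3). A processed pseudogene is a copy of a messenger RNA in the genome, and a probe designed for it can bind the RNA of its parent gene. Of 361 abundant pseudogenes 192 are named after a ribosomal protein gene, so their signals are uncertain and cannot be told apart here from those of the parents.

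Machinery that every growing cell uses was detected nearly in full. Of 84 cytosolic ribosomal protein genes, 71 were abundant and 9 intermediate, among them RPL41 at 14.28, RPLP0 at 14.21 and RPS12 at 14.21 log2. The 4 at background were RPL3L, RPL22L1, RPL10L and RPL10. RPL3L and RPL10L are known as muscle and testis forms, while RPL10 is the form of most cells, and its probes gave only 96.2, 77.1 and 109 on the brighter of 2. Probes of the pseudogenes RPL10P6, at 14.09 log2, and RPL10P9, at 14.05 log2, were abundant and may bind RPL10 RNA. The class of RPL10 is therefore uncertain. All 77 mitochondrial ribosomal protein genes were detected on every array, 38 of them abundant. So were all 18 ATP synthase subunits, with 15 abundant, all 33 small nuclear proteins of the spliceosome, with 19 abundant, all 9 chaperonin subunits, with 6 abundant, and all 9 minichromosome maintenance genes of DNA replication, with 5 abundant.

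Cytochrome c oxidase, the last complex of the respiratory chain, had 11 abundant and 1 intermediate of 17 subunit genes, and the 5 at background were COX4I2, COX6A2, COX7A1, COX7B2 and COX8C. COX6A2 and COX7A1 are the heart and skeletal muscle forms of their subunits. The intermediate gene was COX6B2, known as a testis form, with 105, 97.7 and 143 on 1 of 2 probes, near the detection point on each array. Of 48 proteasome genes 30 were abundant and 15 intermediate, and of 36 complex I genes 22 were abundant and 12 intermediate. Aminoacyl-tRNA synthetases, which charge tRNAs, had 11 abundant and 21 intermediate of 33 genes, and WARS2 was at background.

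**Figure D2:**
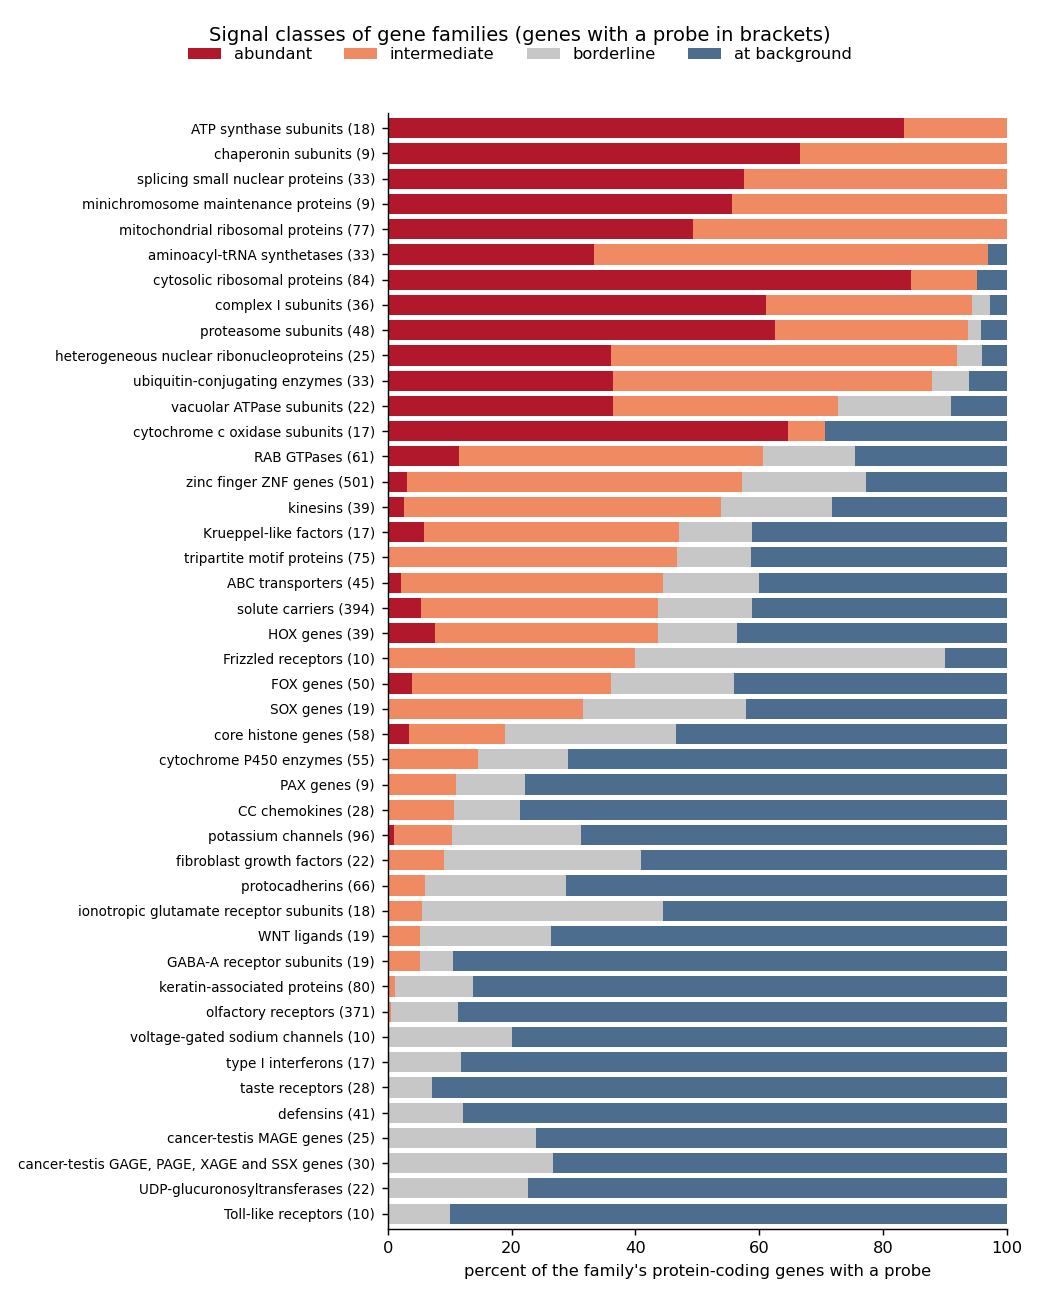
Percent of each family's protein-coding genes (horizontal axis) that were abundant, intermediate, borderline or at background on the 3 siControl arrays, with the number of genes that have a probe in brackets. Families of the ribosome, mitochondrion and spliceosome fill the top, and of 371 olfactory receptors 329 are at background.

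The duct markers were present in part and at modest signal. Of 17 duct genes, none was abundant, against 9.25% of all named genes, while 7 were intermediate, 4 borderline and 6 at background. The 7 detected on all arrays are 41.2% of the list, near the 47.0% of all named genes. SOX9, a transcription factor of duct and progenitor cells, had signals of 762, 884 and 1661. KRT8 and KRT18, the keratin pair of simple epithelia, had 327, 251 and 759 and 166, 171 and 311, and EPCAM, an epithelial adhesion molecule, had 167, 174 and 398. KRT19 had 106, 107 and 162, above but near the detection point on each array.

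E-cadherin and keratin 7 were at background. CDH1, which encodes E-cadherin, the adhesion protein of epithelial junctions, had 80.5, 85.2 and 109, and KRT7 had 82.1, 79.1 and 107, all under the detection points and each from 1 probe. CFTR, the chloride channel of duct cells, with 96.0, 96.8 and 125, was also at background, and so were TFF2 and the secretin receptor gene SCTR. A probe at background bounds the signal and does not show that the RNA is absent.

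Of 16 mesenchymal genes, 3 were abundant, 5 intermediate, 5 borderline and 3 at background. The 8 detected on all arrays are 50% of the list, near the 47.0% of all named genes. VIM, which encodes the intermediate filament vimentin, had 20621, 13281 and 25530 on replicates 1 to 3, at 14.24 ± 0.24 log2 (SD, n = 3), and its second probe was abundant as well, with 12974, 11031 and 20846. CD44, the hyaluronan receptor, had 2162, 2066 and 5094, and TPM1, a tropomyosin of actin filaments, had 1454, 1256 and 2539. Other probes of CD44 were much dimmer, with 346, 459 and 686 and with 133, 127 and 159. Through their brightest probes all 3 genes stood clear of background on every array.

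N-cadherin, the cadherin of mesenchymal and neural cells, was detected where E-cadherin was not: CDH2 had 159, 163 and 373. AXL, a receptor tyrosine kinase, was intermediate with 529, 338 and 1024, as was TWIST2, a transcription factor, with 171, 209 and 367. The transcription factors ZEB1, ZEB2, SNAI2, FOXC2 and TWIST1 were borderline. SNAI1, the matrix gene SPARC and the fibronectin gene FN1 were at background, FN1 through all 3 of its probes, the brightest with 85.8, 84.3 and 118.

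Markers of the other cells of the pancreas were at or near background. None of 17 acinar genes was detected on all arrays. PRSS1, which encodes cationic trypsinogen, had 85.0, 82.4 and 103, and the 4 borderline genes included CEL, a lipase, and AMY2A, pancreatic amylase. Of 14 islet genes, only SYP was detected on every array, with 127, 132 and 216; it encodes synaptophysin, a vesicle protein shared with neurons. INS, the insulin gene, had 89.4, 91.1 and 120, and GCG, the glucagon gene, had 86.1, 92.8 and 116, both at background on every array.

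Lists for cells that a pure line should lack had smaller detected shares than the 47.0% of all named genes. The shares were 33.3% for leukocyte, 25% for fibroblast and stellate, 20% for neuronal and 10% for hepatocyte genes. None of 10 endothelial and none of 7 erythroid genes was detected on all arrays. Of 12 leukocyte genes, CD68 was abundant with 2231, 2096 and 4415, while CD14, LYZ and CD8A were intermediate, at 6.95, 6.61 and 6.59 log2. Read by the mean of each gene's probes, 2 leukocyte genes were detected on all arrays in place of 4. CD68 encodes a lysosomal membrane protein used as a macrophage marker. The general leukocyte gene PTPRC was detected on 1 array, with 104, 82.9 and 115, and CD3D, CD3E, MS4A1 and CSF1R were at background. Of 12 fibroblast and stellate cell genes 3 were intermediate, ACTA2 at 7.29, COL1A1 at 6.78 and THY1 at 6.75 log2. Of 10 neuronal genes TUBB3, a tubulin, was abundant with 2273, 2188 and 5332, and MAP2 was intermediate at 8.26 log2. Of 10 hepatocyte genes only ALB was detected on all arrays, at 6.96 log2. Without replicate 1 the other arrays shared 1 acinar and 4 neuronal genes, and without replicate 2 they shared 2 erythroid genes.

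Transcription factors of the pancreas were detected for 7 of 19 genes (36.8%), against 47.0% of all named genes. FOXA2, a factor of endoderm, was abundant with 2723, 2694 and 6400, but this rests on 1 of 3 probes, since another had 79.0, 96.0 and 103 and the remaining probe 100.5, 118 and 183. PDX1, which specifies the pancreas, was intermediate with 140, 138 and 194, and its second probe, with 87.2, 76.3 and 107, was at background. The intermediate genes also included the epithelial factor ELF3 at 7.13, the acinar nuclear receptor gene NR5A2 at 7.04 and GATA4 at 6.68 log2. GATA6, with 90.8, 87.7 and 101, was at background with ONECUT1, FOXA1 and other genes of the list.

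Of 24 genes that are recurrently altered in pancreatic cancer, 3 were abundant, 15 intermediate, 1 borderline and 5 at background. The 18 detected on all arrays are 75% of the list, against 47.0% of all named genes, but 10 were detected when each gene was read by its dimmest probe. MYC, a transcription factor of growth, had 1353, 1213 and 2949, with normalized levels close together at 10.70 ± 0.03 log2 (SD, n = 3). SMAD4, the effector of TGF-beta signals, had 509, 508 and 1254, clear of the detection point on every array. GNAS at 13.02 and ARID1A at 10.71 log2 were abundant through 1 probe each, while their other probes, 2 for GNAS and 1 for ARID1A, were at background.

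CDKN2A, which encodes the cell cycle inhibitors p16 and p14ARF, had 96.3, 77.6 and 112, at background through all 3 of its probes. CDKN2B, its neighbour and a related inhibitor, had 99.9, 91.4 and 121, and MTAP, a methionine salvage enzyme on the other side, had 97.2, 91.1 and 125. All 3 adjacent genes were at background on every array. Going outward in the gene order of the RefSeq annotation, a run of interferon genes was at background except IFNA8 and IFNE, which were borderline, and KLHL9 at 8.67 log2 was the nearest gene on that side detected on all arrays. On the CDKN2B side, DMRTA1 was borderline and ELAVL2 at background, and TUSC1 at 6.70 and CAAP1 at 6.79 log2 were intermediate. PANC-1 is known as a line with a deletion of CDKN2A; the arrays read RNA and not the genome. RNF43 and TGFBR1 were the other genes of the list at background.

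The NR4A receptors, the study's own target family, were at the limit of these probes. NR4A1 had 95.2, 90.3 and 111 on its brightest probe, under the detection points on all 3 arrays, and none of its 3 probes was detected on any. NR4A3 had 96.1, 89.4 and 125 and was likewise at background. NR4A2 was detected on replicate 3 alone, with 93.8, 96.1 and 161. Their levels could not be set apart from background here, except NR4A2 on that array.

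Among 48 nuclear receptor genes, 13 were intermediate and none abundant. The 13 are 27.1% of the list, against 47.0% detected among all named genes. NR2F6, an orphan receptor, had 694, 724 and 1534, NR2F2 had 386, 346 and 921, and RARA, a retinoic acid receptor, had 336, 305 and 629. The estrogen receptor genes ESR1 and ESR2 were at background.

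Actin filament and microtubule genes were bright, with 23 of 35 abundant and 8 intermediate. ACTB and ACTG1, the cytoplasmic actins, had 17571, 16338 and 22315 and 19006, 14987 and 21533, and the muscle actins ACTA1, ACTC1 and ACTG2 were at background. Keratins were mostly dim. Among 23, KRT10 was abundant with 971, 881 and 2347, KRT8, KRT18 and KRT19 were intermediate, and 16 were at background.

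Of 32 junction genes 16 were detected on all arrays, a share of 50% that is near the 47.0% of all named genes. CTNNA1, the alpha-catenin that links cadherins to actin, was abundant with 2396, 2467 and 5728. The 15 intermediate genes included JUP, plakoglobin, with 631, 672 and 1490 and CLDN7, a tight junction claudin, with 352, 485 and 702. The desmosomal gene DSG3 and P-cadherin, CDH3, were at background. Of 29 S100 and annexin genes, which encode calcium-binding proteins, 7 were abundant and 15 at background. S100A10 had 10636, 11725 and 21722, and ANXA2, its annexin partner, had 11038, 9905 and 17934, so both members of that complex were bright on each array.

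Of 26 integrin genes, ITGB1 with 7210, 5321 and 13686 and ITGB5 with 3380, 3172 and 7380 were abundant. ITGB1 encodes the beta subunit shared by many receptors for matrix, and its alpha partners ITGA2 at 8.51, ITGA6 at 8.45 and ITGAV at 8.68 log2 were intermediate. Among 36 matrix genes, the laminin chains LAMA5 with 1578, 1690 and 4259 and LAMC1 with 899, 860 and 2104 were abundant, and COL4A1 and FN1 were at background. Of 33 proteases and inhibitors, PLAU, the urokinase gene, was abundant with 1651, 1652 and 4308, while MMP1, MMP2, MMP3 and MMP7 were at background.

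Receptor tyrosine kinases, which carry growth factor signals, had 17 of 41 genes (41.5%) detected on all arrays, near the 47.0% of all named genes, and none abundant. EGFR, the epidermal growth factor receptor, had 744, 665 and 1792, and EPHA2, an ephrin receptor, had 515, 434 and 913. Other EGFR probes were dimmer, and those with 92.0, 94.3 and 120 and with 96.9, 90.1 and 130 were at background. INSR, FGFR2, ERBB4 and MST1R were at background. Of 44 cytokine and growth factor genes, 4 were abundant, 16 intermediate and 15 at background. The 20 detected on all arrays are 45.5% of the list, near the 47.0% of all named genes. IL18, an inflammatory cytokine, had 7806, 5926 and 15366, and MIF had 6348, 5947 and 13421. IL10 had 4343, 4152 and 8702 on 1 probe but 88.9, 84.5 and 117 on the other, so its class rests on which probe is read. The chemokines CCL2 with 1022, 1029 and 1731, CXCL1 with 701, 679 and 1556 and CXCL8 with 638, 574 and 1137 were intermediate on every array.

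Metallothioneins, small cysteine-rich proteins that bind zinc and copper and are induced by metals through the factor MTF1, divided between bright and silent members. Promoter stretches of the members found in the RefSeq table are shown because members of 1 cluster on chromosome 16, with metal response element cores before their starts, included both abundant genes and genes at background. Each is the 100 bases that end at the gene start on the plus strand of GRCh38.p14, 5′ to 3′, with the core of the metal response element (TGCACNC or TGCGCNC, either strand) and TATAAA in capitals.
MT2A, abundant, chr16:56608484-56608583: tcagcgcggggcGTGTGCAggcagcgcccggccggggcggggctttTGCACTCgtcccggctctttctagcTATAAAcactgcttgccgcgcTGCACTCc
MT1X, abundant, chr16:56682370-56682469: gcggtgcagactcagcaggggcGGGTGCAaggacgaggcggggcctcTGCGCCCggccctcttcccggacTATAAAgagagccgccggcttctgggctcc
MT4, borderline, chr16:56564973-56565072: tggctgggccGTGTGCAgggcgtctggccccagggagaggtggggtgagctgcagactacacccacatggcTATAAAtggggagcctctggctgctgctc
MT1B, at background, chr16:56651786-56651885: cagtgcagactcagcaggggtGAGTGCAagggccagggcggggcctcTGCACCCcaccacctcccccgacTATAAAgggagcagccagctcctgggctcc
MT1H, at background, chr16:56669714-56669813: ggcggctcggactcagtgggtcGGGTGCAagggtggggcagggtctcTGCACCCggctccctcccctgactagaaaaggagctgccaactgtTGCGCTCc

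Within the printed 100 bases, genes with the same number of cores stood in different classes. MT2A had 3925, 3954 and 7811 with 3 cores in its 100 bases, and MT1H, at background with 93.3, 92.6 and 125, also had 3. MT1X, abundant with 1245, 888 and 2515, had 2, and so did MT1B, with 80.7, 78.2 and 112. MT4 had 1. At least 1 core stands in 15.3% of 14963 protein-coding promoters of this length and at least 3 in 0.361%, and TATAAA stands in 5.32%. MT2A, MT1X, MT4 and MT1B hold TATAAA and MT1H does not. In the 250 bases before the start the counts differed, with 7 cores for MT2A, 8 for MT1H, 4 for MT1X and 3 each for MT1B and MT4. At least 3 cores stand in 2.02% of protein-coding promoters of 250 bases. Whether the number of cores bears on the class was not tested. A match of letters is not a bound site.

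Of 14 metallothionein and ferritin genes, 5 were abundant, 3 intermediate, 2 borderline and 4 at background. MT1A had 4840, 4852 and 10368, and MT1E had 4539, 4645 and 9434, both abundant; MT1E rests on 1 of 2 probes. MT1G with 648, 497 and 1011 and MT1F with 369, 293 and 820 were intermediate, and MT3, known as a brain form, had 79.6, 79.8 and 108. Metallothionein genes are near-identical copies of each other, so a probe may also read a paralog, and the split between members is uncertain for that reason. FTL, the light chain of the iron store ferritin, had 14101, 14437 and 23188, and the heavy chain FTH1 had 393, 405 and 822.

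Redox genes, which the study's title names, were broadly detected. Of 57, 18 were abundant, 27 intermediate, 4 borderline and 8 at background. The 45 detected on all arrays are 78.9% of the list, against 47.0% of all named genes. PRDX1, a peroxiredoxin, had 13650, 10244 and 20531, TXN, thioredoxin, had 9813, 7959 and 15504, and SOD1, the cytosolic superoxide dismutase, had 8798, 7860 and 16034. NQO1 at 11.47, NFE2L2 at 10.56, TXNRD1 at 10.50 and HMOX1 at 9.57 log2 were detected on all arrays, while AKR1C1, AKR1C2, AKR1C3 and AKR1B10 were at background. NFE2L2 encodes NRF2, the factor that drives antioxidant genes, and the other 7 of these genes are known as its targets.

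Endoplasmic reticulum genes were detected for 33 of 40 (82.5%), 13 of them abundant, against 47.0% detected among all named genes. SEC61G, part of the channel into the reticulum, had 6379, 5984 and 10491. ATF4, a stress transcription factor, had 5579, 4983 and 10784 on its brightest probe. Other ATF4 probes were much dimmer, with 727, 831 and 1091 and with 128, 132 and 176. HSP90B1, the reticulum's HSP90, had 3246, 2914 and 7220. TXNDC5, a disulfide isomerase, at 10.98 and XBP1 at 10.47 log2 were abundant, and HSPA5, which encodes the chaperone BiP, at 8.10 and DDIT3, which encodes CHOP, at 8.57 log2 were intermediate. PDIA3, a common disulfide isomerase, and SEL1L were at background. Of 31 heat shock genes 15 were abundant, with HSPD1, a mitochondrial chaperonin, at 10491, 9358 and 18261 and HSPA8 at 9012, 7035 and 15177.

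Of 31 glycolytic genes, 12 were abundant and 10 intermediate. ENO1 had 15213, 13613 and 21859, LDHA 11030, 10504 and 18064, and GAPDH 9941, 7223 and 15143. The 7 at background included SLC2A2, the glucose transporter of liver and beta cells, and GAPDHS, the sperm form, whereas ENO3, the muscle enolase, was intermediate with 230, 200.3 and 452. SLC2A1, the glucose transporter of most cells, was intermediate at 8.51 log2. Of 40 cell cycle genes 33 (82.5%) were detected on all arrays, against 47.0% of all named genes. CDC20, an activator of mitotic exit, had 4870, 4248 and 10309, CCND1, cyclin D1, had 3212, 3675 and 8870, and PCNA, the replication clamp, had 3800, 2956 and 7048.

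Of 45 apoptosis genes 4 were abundant, BNIP3, BIRC2, DIABLO and BIRC3, and 26 were intermediate. BCL2 was at background with 101, 88.3 and 127 on its brightest of 4 probes, although another, with 78.4, 79.8 and 132, was detected on replicate 3, while its relative BCL2L1 was intermediate at 10.13 log2. Of 41 antigen presentation and interferon genes, B2M, the light chain of class I molecules, was abundant with 5261, 4551 and 9874, whereas the class II genes HLA-DRB1, HLA-DPA1, HLA-DPB1 and HLA-DQA1 were at background and HLA-DRA, at 7.16 log2, and HLA-DMA, at 6.47, were intermediate. None of 17 type I interferon genes was detected on all arrays. Of 18 small RNA pathway genes, which siRNA use, AGO2, the slicing Argonaute, was abundant with 942, 1032 and 2593, DICER1 was intermediate with 422, 336 and 1023, and AGO4 and PIWIL1 were at background. DICER1 probes with 78.2, 80.9 and 115 and with 85.8, 88.2 and 97.6 were also at background.

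HOX genes, which give cells positional identity, differed between their 4 clusters. Of 10 HOXB genes 7 were detected on all arrays, of 9 HOXC genes 6, of 11 HOXA genes 4 and of 9 HOXD genes none. Together these are 17 of 39 genes (43.6%), beside 47.0% of all named genes and 51.1% of protein-coding genes. The clusters hold few genes each, and their difference was not tested. HOXB5 had 1864, 1709 and 4491, HOXB7 had 1149, 1021 and 2667, and HOXC6 had 1313, 1155 and 3281, and all 3 were abundant. Outside the HOX clusters, the forkhead gene FOXQ1, with 2169, 1892 and 5022, joined FOXA2 as the abundant members of 50 FOX genes, and KLF6, with 2394, 2129 and 5212, was the abundant member of 17 Krueppel-like factors. Of 19 WNT ligand genes 1 was detected on all arrays, WNT5B at 6.61 log2, which was not detected on all arrays at a stricter 99% point, against 4 of 10 Frizzled receptor genes.

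Of a list of 24 well-studied long noncoding RNAs, 17 were detected on all arrays. Of all 1061 long noncoding RNA genes with a probe, 21 were abundant and 144 intermediate, so the list is not typical of them. SNHG5, a host of small nucleolar RNAs, had 5549, 5256 and 11439. MEG3, an imprinted RNA, was abundant with 3069, 3097 and 6382, and its second probe was detected as well, with 710, 579 and 1227. HOTAIR, which is transcribed from the HOXC cluster, was intermediate with 198, 222 and 363, next to the detected HOXC genes above. MALAT1, an abundant nuclear RNA in most cells, had 80.9, 78.8 and 104 on its 1 probe.

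Families of other tissues were nearly silent. Of 55 cytochrome P450 genes 8 were detected on all arrays, CYP1B1, which metabolizes steroids and xenobiotics, with 873, 777 and 2256 and CYP51A1, of sterol synthesis, with 792, 640 and 1571 among them. None of 22 UDP-glucuronosyltransferases, 10 voltage-gated sodium channels, 28 taste receptors, 41 defensins, 25 MAGE genes or 10 Toll-like receptors was detected on all arrays, although without replicate 1 a UDP-glucuronosyltransferase, a defensin, a MAGE gene and a Toll-like receptor were, 1 of each, and without replicate 2 a single defensin was. Of 96 potassium channel genes 10 were, and the 1 that was abundant, KCNH6, with 5704, 4464 and 10911, rests on 1 of 3 probes. By the mean of each gene's probes 6 potassium channel genes were detected. Larger families were mixed, with 287 of 501 ZNF zinc finger genes (57.3%) and 172 of 394 solute carriers (43.7%) detected. These stand beside 47.0% of all named genes and 51.1% of protein-coding genes.

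The choice of probe decided many classes. Of the 2124 abundant genes 1113 have 1 probe and 1011 have several, and of those 1011 the brightest and dimmest probes lay over 4 apart on the log2 scale for 443. At least 1 other probe was detected on no array for 231. In the other direction, 61 genes at background by the brightest probe had another probe detected on an array. PDCD7, a splicing protein, had 18425, 15355 and 25067 on 1 probe and 316, 299 and 671 on the other, and ORC6, of the origin recognition complex, had 18192, 15764 and 22398 against 385, 482 and 821. Both stand among the 30 brightest genes through the first probe alone. CLEC2D, a lectin-like receptor, had 19350, 15167 and 22211 on its brightest probe, and 4 of its 6 probes were near background. The remaining probe had 2020, 196 and 3973, low on replicate 2 alone.

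Several group counts moved by over 1.5 times with the probe. Read by the dimmest probe of each gene, a reading added after the data were seen, 5 mesenchymal genes were detected on all arrays in place of 8, 3 pancreas factors in place of 7 and 10 driver genes in place of 18. Junction genes fell to 9, against 16 by the brightest probe, integrins to 6, against 10, matrix genes to 8, against 14, receptor tyrosine kinases to 10, against 17, nuclear receptors to 8, against 13, cytochrome P450 genes to 5, against 8, and ubiquitin-conjugating enzymes to 15, against 29. Of the markers of other cells, 1 leukocyte gene, 1 neuronal gene and no hepatocyte gene were then detected.

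The 3 arrays agreed closely for detected genes. Across the 10802 genes detected on all arrays, normalized log2 levels correlated at a Pearson r of 0.991 between replicates 1 and 2, 0.993 between 1 and 3 and 0.990 between 2 and 3; genes are not independent replicates. Across genes at background r was 0.364, 0.424 and 0.403 for the same pairs. That class is a narrow band by definition, with mean levels of 5.69 to 6.33 log2, so a low r there does not show that the arrays disagree. Its median SD over the 3 arrays was 0.0956 log2, and 99.4% of its genes ranged by under 0.5. The median SD over the 3 arrays was 0.115 log2 for abundant and 0.136 for intermediate genes, and 94.7% and 90.1% of them ranged by under 0.5. The normalization sets the overall distributions equal; with array medians alone equalized, the median SD of abundant genes was 0.527, with replicate 3 the brightest array as above.

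**Figure D3:**
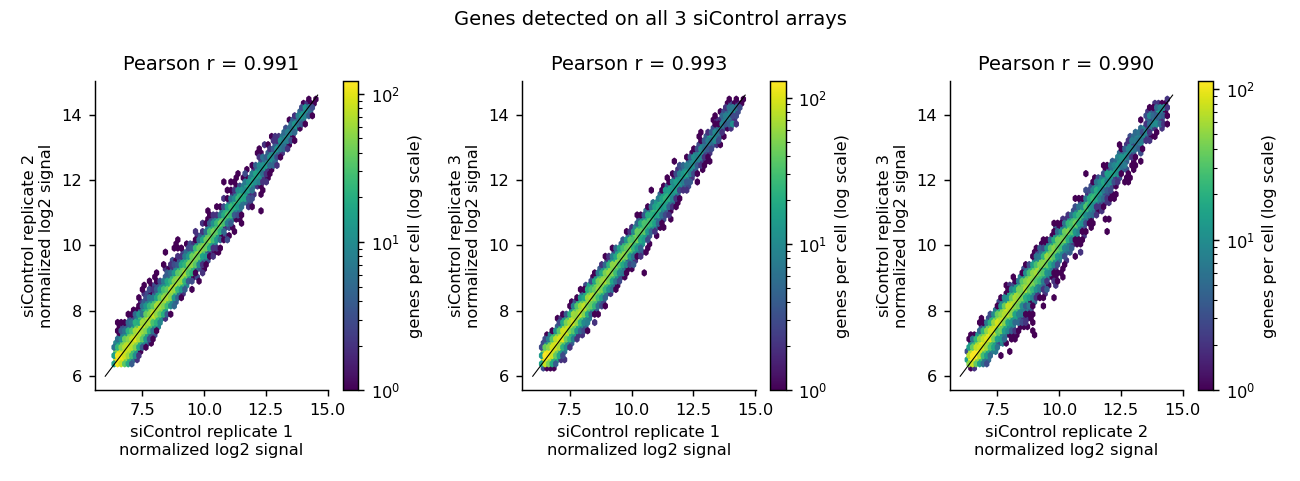
Normalized log2 signal of each gene detected on all 3 siControl arrays, for each pair of arrays (both axes), with colour for the number of genes per cell on a log scale and the line of equality in black. Points follow the line at r of 0.990 to 0.993 and widen at low signal and, in the panels with replicate 2, on its high side.

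Even genes included PABPC1, the poly(A)-binding protein, with 6207, 5748 and 11773, at 12.86 ± 0.01 log2, and PPA1, a pyrophosphatase, at 12.46 ± 0.01 log2 (SD, n = 3 each). At the other end, 4 abundant and 23 intermediate genes ranged by over 1 log2. In 20 of these 27, replicate 2 was the array farthest from the median of the 3 and was high, in 5 replicate 3 was low, and replicates 1 and 2 were each low in 1. CTNNB1, which encodes beta-catenin, had 300, 691 and 587 and ranged by 1.46 log2, and a second probe, with 318, 610 and 597, had the same order of arrays. AKT2, a kinase of insulin signals, had 205, 378 and 359, OGDH, of the citric acid cycle, had 181, 364 and 372, and NOMO1 had 409, 854 and 939. After normalization these 4 genes were highest on replicate 2, with log2 levels of 9.83 for CTNNB1, 8.89 for AKT2, 8.83 for OGDH and 10.14 for NOMO1 there. Detection near the threshold also varied, with 1138 genes detected on 2 arrays and 2065 on 1.

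Promoters of the classes differed in base composition. A window of 250 bases before to 50 after the gene start was available from RefSeq (GRCh38.p14) for 14963 of 18702 protein-coding genes. The observed over expected number of CpG dinucleotides, which is high in CpG islands and low in most of the genome, had a median of 0.874 for abundant, 0.853 for intermediate, 0.695 for borderline and 0.418 for background genes, against 0.770 for all. It was above 0.6 for 90.9%, 86.1%, 58.5% and 38.9% of the classes in the same order. The letters GGGCGG, a core of SP1 sites, stood on either strand in 72.5%, 72.2%, 56.0% and 41.0%, against 59.6% of all, while CCAAT ranged only from 35.1% to 39.1%.

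TATAAA was most frequent in background promoters, at 16.1%, and least frequent in intermediate ones, at 4.64%. It stood in 6.37% of abundant and 10.7% of borderline promoters, against 9.46% of all. Single families lay far from these shares. Olfactory receptors, of which 297 have a window, had a median CpG ratio of 0.12 and TATAAA in 34.3%. Between 45 and 16 bases before the start, where a TATA box usually lies, 2.02% of them hold it, against 3.71% of all genes and 6.98% of background genes. That stretch was searched on the gene's own strand alone, and the whole window on either strand. Keratin-associated protein genes of hair had TATAAA in 78.8% of 66 windows, and in that stretch in 48.5%. Cytosolic ribosomal protein genes had a median CpG ratio of 0.904. Core histone genes hold TATAAA in 67.9% and CCAAT in 81.1% of 53 windows; 11 of 58 such genes were detected on all arrays, with H4C3 abundant at 10996, 11193 and 20636. Their RNAs mostly lack a poly(A) tail, and members of one histone family are near-identical, so these signals are uncertain.

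**Figure D4:**
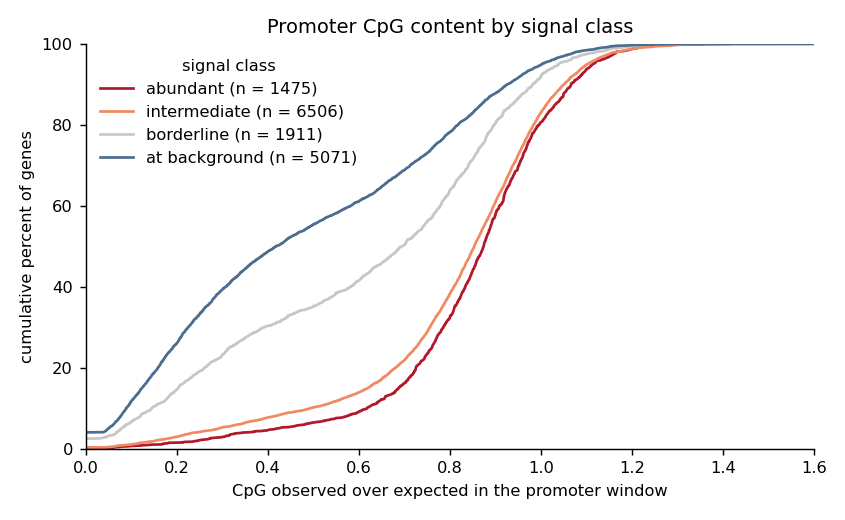
Cumulative percent of protein-coding genes (vertical axis) against the observed over expected CpG ratio of the promoter window (horizontal axis), for the 4 signal classes. The curves of abundant and intermediate genes run together around medians of 0.874 and 0.853, and the background curve reaches its median at 0.418.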

How the data were processed

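Total RNA of siControl-transfected PANC-1 cells was labelled as biotin-cRNA and hybridised to Illumina bead arrays, per the labels' protocols. The submitters' processing notes list BeadStudio. Its version, the array model and a genome build were not given in these sources. The authors' deposited table holds linear probe intensity without normalization or detection p-values. Its 3 columns of the other group were not used.

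Intensities were corrected by normexp with an offset of 50, quantile-normalized over the 3 arrays and put on the log2 scale with limma 3.58.1 in R 4.3.3; other steps used Python 3.11.15. Background was the mode of each array's log2 signals, its spread came from the values below the mode, and detection was the 95% point. This was tested on simulated data. The simulated background was drawn independently for each array from the same mode and spread, so the simulation could not check that form of background. Detection and ranks were read on each array, and the number of arrays limits the precision. Symbols were updated through RefSeq's gene table (GRCh38.p14), which left 12082 probes without a settled name. A gene took its probe with the highest mean, which favours a stray bright probe.

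The text draws its genes from the 30 brightest, leading and silent members of each list, all cell type markers, driver and pancreas factor genes, and the genes of largest and smallest range. Genes beyond this rule, such as NQO1, HMOX1, the AKR1 genes, HSPA5, DDIT3, XBP1, TXNDC5, BCL2L1, HLA-DRA, HLA-DMA and the neighbours of CDKN2A, were chosen after their values were seen. Members and lists were chosen with earlier results of these data known. Patterns for 3 families were tidied, and families kept to protein-coding genes, after seeing the data. Some genes of the lists are counted but not reported here by name.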

Additional observations from a re-analysis of the deposited data

How the results depend on the processing

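Results kept their size under most alternatives. An offset of 16 gave a lowest Pearson r of 0.989, and equalized array medians gave 0.984 with a median SD of abundant genes of 0.527. With the top 5% as abundant 1064 genes were abundant. Leaving out each array in turn gave 2097 to 2238 borderline genes and a lowest r of 0.990 to 0.993, the construction requiring fewer arrays to agree; genes detected on all arrays then numbered 10924 to 11451. Reading each gene by its dimmest probe, an alternative chosen after seeing the data, gave a lowest r of 0.988, and 230 of 2124 abundant genes were then at background. By that probe 8315 genes were detected on all arrays, and 598 of 814 named genes kept their class. Restricting the ranks to protein-coding genes, also chosen after seeing the data, changed the class of none of the 782 named genes it covers. Under the other alternatives 752 to 814 of the 814 kept their class. Detection and ranks were read on deposited signals, so the offset, background correction and scaling could change a class only through the choice of probe. Their counts, 813 or 814, are therefore no check of the classes. The number of detected members moved by over 1.5 times for 25 of 79 lists with the dimmest probe, for 5 with the mean of probes, for 2 at the 99% point, and for 9, 3 and 2 without replicates 1, 2 and 3. No paired analysis was possible because a single group is described. Signals near background limit what can be said of dim genes, NR4A1 among them.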
